A study of Homo sapiens with 9 samples.

Results

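The BCL2 family decides whether the outer membrane of the mitochondrion stays closed or is opened to start cell death, and 10 of its genes were followed in HT-29 cells treated with 5-aza-deoxycytidine (5-Aza). The 10 genes were taken by name, with earlier results of these data known but by no rule on their values, as 3 survival members (BCL2, BCL2L1 and MCL1), 2 pore-forming effectors (BAX and BAK1) and 5 BH3-only members (BBC3, PMAIP1, BCL2L11, BID and BIK). All 10 were found among the 23284 gene symbols of the RNA-Seq tables, each on a single entry. HT-29 is an established human colon cancer cell line, so the data describe a single line in culture. Control cells received the solvent DMSO alone (0 µM 5-Aza), and the remaining cells received 5 µM or 10 µM 5-Aza, with 3 separate cultures in each group and 5 days of treatment. 5-Aza is a cytidine analog that is built into DNA, traps DNA methyltransferases and so lowers DNA methylation as cells divide. All cultures carry the same cells and solvent, and methylation itself, protein and cell death were not measured in the files used here.

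As background, the effectors BAX and BAK1 form pores in the outer mitochondrial membrane, through which cytochrome c leaves to activate caspases. The survival proteins BCL2, BCL-xL (the long product of BCL2L1) and MCL1 hold the effectors and the BH3-only proteins in inactive complexes. BH3-only proteins sense stress and either block the survival proteins or activate the effectors directly: PUMA (BBC3) and NOXA (PMAIP1) are induced by cellular stress, BIM (BCL2L11) responds to loss of growth signals, BID links death receptors to mitochondria, and BIK acts largely at the endoplasmic reticulum. In the colon, BCL-xL and MCL1 are known as main guardians of epithelial survival.

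In brief, 5 µM 5-Aza was accompanied by lower BCL2L1, BBC3 and BID mRNA and by higher BCL2L11 mRNA, so that members of both the survival and the killing side fell. BBC3 fell to about 0.499 times its control level, BID to 0.586 times and BCL2L1 to 0.681 times, while BCL2L11 reached 1.35 times its control level. No member passed the test between 10 µM and 5 µM, and at 10 µM vs. 0 µM only BID passed it. Of all genes tested, 39.0% passed at 5 µM vs. 0 µM, 6.17% at 10 µM vs. 5 µM and 15.1% at 10 µM vs. 0 µM. The 4 of 10 members that passed at 5 µM were thus close to the share of all genes.

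The agent acts on methylation at CG dinucleotides, so the bases in front of the genes are shown for 3 of the members that moved, with every CG in capitals. BID, which fell as well, is not printed. The sequences are those of the RefSeq promoter table for GRCh38.p14, 250 bases upstream of the gene start, read 5′ to 3′ on the strand of the gene. The BBC3 stretch is chr19:47232668-47232917 (minus strand), that of BCL2L1 is chr20:31723964-31724213 (minus strand), and that of BCL2L11 is chr2:111120664-111120913 (plus strand).
BBC3: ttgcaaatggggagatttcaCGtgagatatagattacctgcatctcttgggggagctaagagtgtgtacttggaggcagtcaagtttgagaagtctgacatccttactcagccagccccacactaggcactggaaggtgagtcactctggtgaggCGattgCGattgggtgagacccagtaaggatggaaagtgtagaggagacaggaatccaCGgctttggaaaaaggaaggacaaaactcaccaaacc
BCL2L1: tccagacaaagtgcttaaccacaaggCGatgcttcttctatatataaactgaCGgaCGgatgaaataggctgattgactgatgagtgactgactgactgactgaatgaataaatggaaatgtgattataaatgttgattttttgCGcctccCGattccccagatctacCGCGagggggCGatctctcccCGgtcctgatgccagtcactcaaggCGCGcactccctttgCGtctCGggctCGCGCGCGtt
BCL2L11: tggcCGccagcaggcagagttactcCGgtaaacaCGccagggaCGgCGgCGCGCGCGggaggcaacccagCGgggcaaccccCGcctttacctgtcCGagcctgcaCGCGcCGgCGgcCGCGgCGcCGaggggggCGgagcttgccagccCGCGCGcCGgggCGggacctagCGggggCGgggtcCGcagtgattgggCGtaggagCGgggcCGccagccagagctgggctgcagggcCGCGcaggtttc

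The 3 stretches differ in their number of CG dinucleotides. The one in front of BBC3 held 4 and that of BCL2L11 held 34, each with only 1 start site in the table. That of BCL2L1 held 17 (12 at the lower of its 2 start sites in the table). The table covered 27305 genes with a median of 11, and 93.6% of them held at least 1 CG in a stretch of this length. As many CG dinucleotides as in front of BCL2L11 were found at 6.61% of genes, and as many as in front of BBC3 at 69.9%. BID, which fell like BBC3 and BCL2L1, had 30 (between 4 and 30 over its 5 start sites in the table). Of the remaining members, PMAIP1 had 36, BAX 25, BCL2 24 and BAK1 5. MCL1 and BIK were not matched in this table. These numbers describe the reference sequence and say nothing about methylation in these cells.

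RNA levels were given as FPKM, a fragment count divided by the length of the gene and by a term for the size of the library. The values of a library sum to between 3.692e+09 and 5.908e+09. The library term behind this scale is not given, and the values are therefore used as relative values. In the control, the order of the mean levels was BCL2L1, BAX, MCL1, BBC3, BID, BAK1, PMAIP1, BCL2L11, BIK and BCL2. BCL2L1 stood above 97.8% of the 17755 symbols listed above 0 in the control, and BCL2 stood above 11.2% of them. BAX and MCL1 were neighbours whose replicates overlapped in every group (968308 ± 150784 and 877956 ± 107195 FPKM in the control, SD, n = 3), and their order changed at 5 µM. PMAIP1 and BCL2L11 overlapped in the control as well, at 81085 ± 12993 and 65530 ± 8593 FPKM (SD, n = 3).

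**Figure D1:**
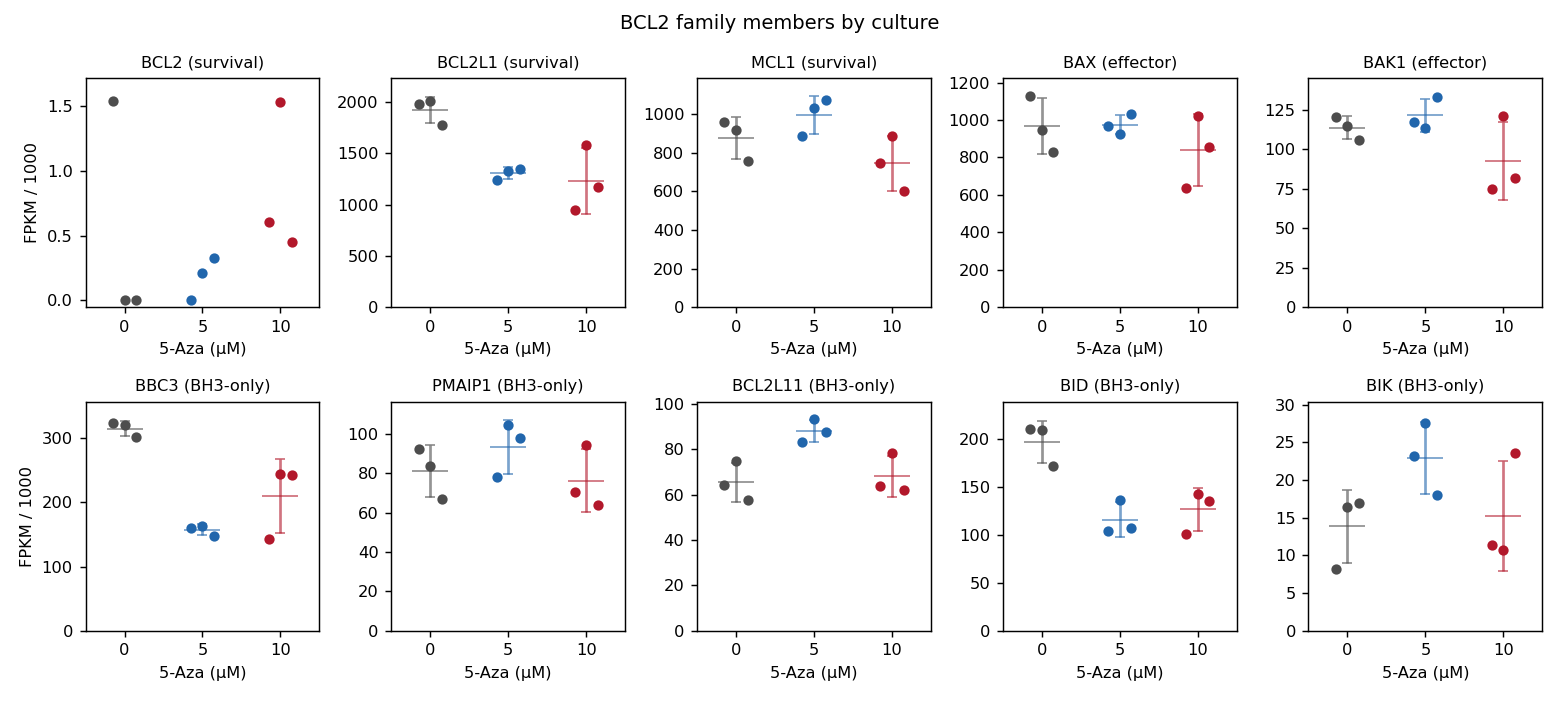
FPKM divided by 1000 for each of the 10 members (vertical axis, a separate linear scale in each panel) against the 5-Aza concentration in µM, with 1 point per culture, a horizontal line at the mean and bars of 1 SD (n = 3); for BCL2 only the points are shown. BCL2L1, BBC3 and BID sit lower in all 3 cultures at 5 µM than in any control culture, BCL2L11 and BIK sit higher, and at 10 µM the cultures of most members spread more widely.

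BCL2L1, the most abundant of the survival genes, was lower in treated cells. Its FPKM was 1982610, 2007110 and 1781150 in the control cultures and 1243210, 1331330 and 1351160 at 5 µM. At 10 µM it was 946207, 1583680 and 1170470. All 6 treated cultures lay below the lowest control culture, and the 10 µM cultures spanned a range that enclosed the whole 5 µM group. The log2 fold change was -0.55 (SE 0.08, limma adjusted p = 0.00275) at 5 µM vs. 0 µM and -0.67 (SE 0.22, adjusted p = 0.0781) at 10 µM vs. 0 µM. In a fit of all 9 samples together the order of these calls turned around, with adjusted p = 0.0523 at 5 µM vs. 0 µM and 0.0302 at 10 µM vs. 0 µM. Without 10 µM replicate 2, the 10 µM difference was -0.87 with adjusted p = 0.00993. BCL2L1 makes a long survival form and a short killing form by splicing, and a gene-level FPKM cannot tell these apart. In GRCh37 it occupies positions 30252255 to 30311792 of chromosome 20 (minus strand).

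MCL1, a short-lived survival protein, did not pass the test in any comparison. The control cultures had 959458, 917882 and 756528 FPKM, and the 5 µM cultures 886840, 1032090 and 1071870. The 10 µM cultures had 745301, 889015 and 600461 FPKM. The groups overlapped in each pairing, and the log2 fold change was 0.19 (95% interval -0.11 to 0.48, limma adjusted p = 0.26) at 5 µM vs. 0 µM and -0.25 (-0.69 to 0.19, adjusted p = 0.378) at 10 µM vs. 0 µM. MCL1 (chromosome 1 of GRCh37, 150533371 to 150552214, minus strand) shares exon sequence with ADAMTSL4 on the opposite strand, and a kit without strand marks cannot separate their reads there. Its alternatively spliced short form is likewise not separated.

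BCL2, the founding survival gene, was at the bottom of the family in HT-29 cells. It was listed at 0 in 2 control cultures and at 1536 FPKM in control replicate 1. At 5 µM it was listed at 0, 212 and 330 FPKM, and at 10 µM at 604, 1526 and 449. The highest control culture and the highest 10 µM culture were nearly equal, and every library rested on an estimated 23.7 fragments or fewer. No fold change is given for BCL2, since most of it would depend on the value added before the logarithm. The limma adjusted p was 0.701 at 5 µM vs. 0 µM, 0.274 at 10 µM vs. 5 µM and 0.174 at 10 µM vs. 0 µM, and without control replicate 1 the last became 0.0263. The gene occupies chromosome 18, positions 60790579 to 60987361 (GRCh37, minus strand).

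The effectors BAX and BAK1 did not pass the test in any comparison. BAX had 1128730, 946701 and 829493 FPKM in the control cultures, 969184, 927830 and 1031430 at 5 µM, and 637996, 1020580 and 856943 at 10 µM. All 5 µM cultures lay inside the control range, and the log2 fold change of BAX was 0.02 (95% interval -0.27 to 0.32, limma adjusted p = 0.898) at 5 µM vs. 0 µM. Between 10 µM and the control it was -0.22 (-0.73 to 0.28, adjusted p = 0.495). A BAX change of more than 2-fold lies outside both intervals. The gene spans 49458072 to 49465055 on the plus strand of chromosome 19 in GRCh37.

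BAK1 was lower than BAX in every library, with 120529, 114765 and 106040 FPKM in the control cultures. It had 117661, 113545 and 133478 FPKM at 5 µM and 74839, 120985 and 81922 at 10 µM. Replicates 1 and 3 at 10 µM were below every control culture, whereas replicate 2 was above all of them. The log2 fold change was 0.09 (95% interval -0.13 to 0.31, limma adjusted p = 0.431) at 5 µM vs. 0 µM and -0.33 (-0.79 to 0.13, adjusted p = 0.264) at 10 µM vs. 0 µM. The latter became -0.54 with adjusted p = 0.0167 without 10 µM replicate 2. BAK1 (chromosome 6 of GRCh37, 33540324 to 33548070, minus strand) overlaps exons of GGNBP1 on the opposite strand and has annotated pseudogene copies, so its level is uncertain to that extent.

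Among the BH3-only genes, BBC3, which codes for PUMA, changed the most. Its FPKM was 322644, 320410 and 301158 in the control cultures and 160356, 163636 and 147244 at 5 µM. The 10 µM cultures had 142670, 243713 and 242857. The control cultures differed little from each other, all 6 treated cultures lay below them, and 2 of the 10 µM cultures lay between the control and the 5 µM groups. Between 5 µM and 0 µM its log2 fold change was -1.004 (SE 0.07, limma adjusted p = 0.000285), which is just past 2-fold. The adjusted p was at most 0.00551 under every alternative tried, whereas the 2-fold limit was missed by a small margin without control replicate 1 (-0.99), control replicate 2 (-0.99) or 5 µM replicate 3 (-0.96). Between 10 µM and the control the difference was -0.63 (SE 0.22, adjusted p = 0.0872), and at 10 µM vs. 5 µM it was 0.38 (SE 0.22, adjusted p = 0.324). Without 10 µM replicate 1, the lowest of its group, BBC3 was higher at 10 µM than at 5 µM by 0.63 with adjusted p = 0.0395, and without 10 µM replicate 2 the difference from the control was -0.76 with adjusted p = 0.0434. BBC3 lies on chromosome 19 of GRCh37 (47724079 to 47736023, minus strand) and overlaps the microRNA gene MIR3191 on the opposite strand.

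BID, the BH3-only protein that is cleaved downstream of death receptors, fell at both concentrations. The control cultures had 210173, 209619 and 172244 FPKM. At 5 µM BID had 104044, 136863 and 107053 FPKM, and at 10 µM 101526, 143202 and 135787. The treated groups overlapped each other almost entirely and both lay below all control cultures. BID differed on the log2 scale by -0.77 (SE 0.14, limma adjusted p = 0.00606) at 5 µM vs. 0 µM and -0.65 (SE 0.17, adjusted p = 0.0447) at 10 µM vs. 0 µM. The first held under every alternative tried, at adjusted p of 0.0332 or less. The second stood near the threshold: leaving out any library other than 10 µM replicate 2 moved its adjusted p to between 0.0745 and 0.167, with the log2 difference between -0.74 and -0.49. The gene occupies chromosome 22, positions 18216904 to 18257536 (GRCh37, minus strand).

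BCL2L11, which codes for BIM, was the only member to pass the test with a higher level. It had 64292, 74675 and 57622 FPKM in the control cultures, 83281, 93220 and 87743 at 5 µM, and 63666, 78440 and 62233 at 10 µM. Each 5 µM culture lay above all cultures of both other groups, which overlapped each other. BCL2L11 differed on the log2 scale by 0.43 (SE 0.11, limma adjusted p = 0.0265) at 5 µM vs. 0 µM and 0.06 (95% interval -0.33 to 0.44, adjusted p = 0.828) at 10 µM vs. 0 µM. The rise at 5 µM passed the test with all 6 cultures and without control replicate 2. Without any other single culture (control replicates 1 and 3 and the 5 µM replicates) it kept a log2 difference of at least 0.34 but had an adjusted p between 0.0524 and 0.0809. At 10 µM vs. 5 µM the difference was -0.38 (SE 0.14, adjusted p = 0.167), and -0.48 with adjusted p = 0.0385 without 10 µM replicate 2. The gene occupies chromosome 2, positions 111876955 to 111926021 (GRCh37, plus strand).

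PMAIP1, which codes for NOXA, an inhibitor of MCL1, did not pass the test. It had 92490, 83824 and 66942 FPKM in the control cultures, 78003, 104545 and 97678 at 5 µM, and 70685, 94088 and 63977 at 10 µM. All 3 groups overlapped, and the log2 fold change was 0.21 (95% interval -0.19 to 0.60, limma adjusted p = 0.353) at 5 µM vs. 0 µM and -0.10 (-0.56 to 0.37, adjusted p = 0.741) at 10 µM vs. 0 µM. PMAIP1 spans 57567228 to 57571537 on the plus strand of chromosome 18 in GRCh37.

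BIK was the least abundant killing member. It had 8247, 16387 and 16898 FPKM in the control cultures and 23143, 27512 and 18028 at 5 µM, where all 3 cultures lay above the control. At 10 µM it had 11356, 10780 and 23628 FPKM, a range that reached into both other groups. Its log2 fold change between 5 µM and 0 µM was 0.78 with a wide 95% interval of -0.02 to 1.57 (limma adjusted p = 0.109). BIK rested on an estimated 8.82 to 67.3 fragments per library. It occupies chromosome 22, positions 43506756 to 43525718 (GRCh37, plus strand).

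**Figure D2:**
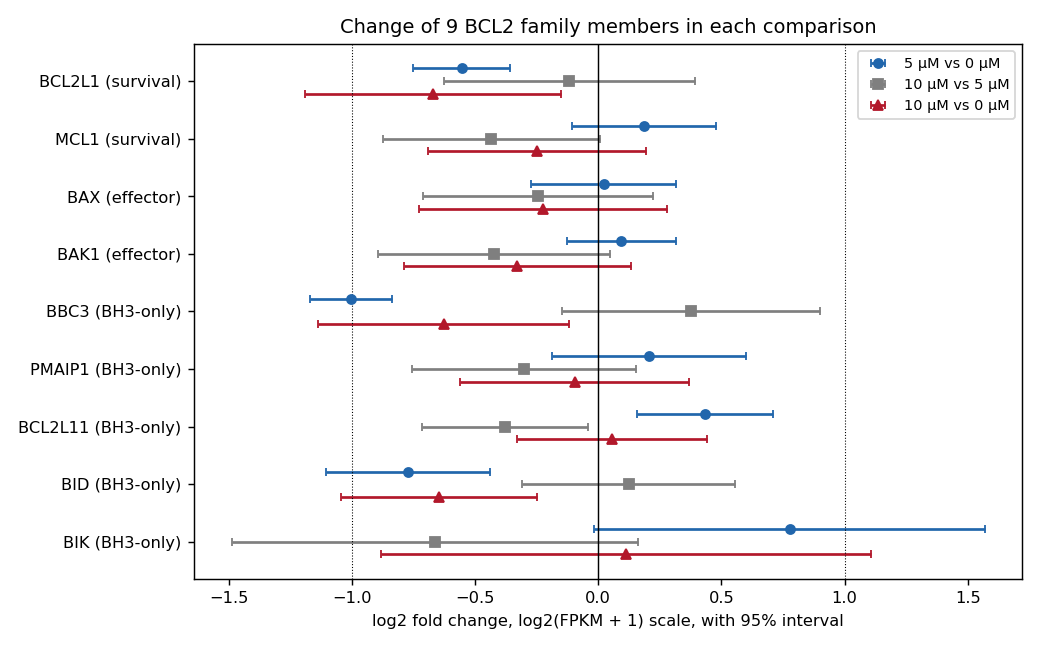
Log2 fold change on the log2(FPKM + 1) scale (horizontal axis) of 9 members, without BCL2, in each comparison, with 95% intervals from limma (n = 3 per group); dotted lines mark a 2-fold change. At 5 µM vs. 0 µM the intervals of BCL2L1, BBC3 and BID lie below 0 and that of BCL2L11 above it, and the intervals of both comparisons with 10 µM are wider for every member drawn.

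Counted over the family, 4 of the 10 members passed an adjusted p of 0.05 at 5 µM vs. 0 µM, 1 higher and 3 lower. Of the 20051 genes tested in that comparison, 39.0% passed, 21.3% higher and 17.7% lower, so the share among the members was close to that among all genes. Only BBC3 also passed the 2-fold limit, which 16.2% of all tested genes did (14.1% higher and 2.17% lower). The cultures of 2 members lay above the control without overlap and those of 3 below it, against 29.4% and 23.2% of all genes. The median log2 fold change was 0.14 over the members and 0.14 over all genes tested. Genes listed at 0 in some libraries are among the latter, and over the 15448 genes above 0 in all 6 libraries the median was -0.04.

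From 5 µM to 10 µM, 0 of the 10 members passed the limma test, with adjusted p between 0.167 and 0.742, against 6.17% of the 20085 genes tested (0.319% higher and 5.85% lower). Without adjustment limma gave 1 member under 0.05, BCL2L11, and the share of all genes at that level was not counted. None passed 2-fold as well, which 0.129% of genes did higher and 4.82% lower, 4.95% in all. BCL2 lay above the 5 µM cultures without overlap and BCL2L11 below them, against 4.37% and 25.3% of all genes. For 7 of the 10 the difference was negative, and the median of -0.27 over the members was near that of -0.31 over all genes tested. Between 10 µM and the control, 1 of the 10 (BID, lower) passed, against 15.1% of 18928 genes (5.39% higher and 9.71% lower). None passed 2-fold as well in limma, which 7.48% of genes did (4.07% higher and 3.40% lower). At an unadjusted level under 0.05 there were 3 members (BCL2L1, BBC3 and BID). The share of all genes at that level was again not counted, so this number cannot be set against it. Without overlap, 3 members lay below the control and none above it, against 26.7% and 14.4% of all genes. The comparisons share their control or their 5 µM cultures and are not independent of each other.

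Of the 10 µM libraries, replicates 1 and 3 sat lower (median-of-ratios scale factors 0.8353 and 0.8571), which bears on each value given for that group. Replicate 2 had a factor of 1.055, within the 1.003 to 1.101 of the other groups. Over the 15300 genes above 0 in all 6 libraries the median log2 change at 10 µM vs. 0 µM was -0.23, compared with -0.04 over 15448 genes at 5 µM vs. 0 µM. After scaling each library by the median of its ratios, the 10 µM vs. 0 µM differences of BCL2L1, BBC3 and BID were -0.43, -0.39 and -0.41 (limma adjusted p = 0.0622, 0.165 and 0.062). With the same scaling those of MCL1, BAX and BAK1 were -0.01, 0.02 and -0.09, and those of PMAIP1 and BCL2L11 0.15 and 0.30, with none passing. At 5 µM vs. 0 µM the scaling moved values little: BBC3 became -0.96 and so no longer reached 2-fold, and the same 4 members passed an adjusted p of 0.05.

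The balance between killing and survival members was examined within each library, where differences between libraries in scale drop out. The 7 killing members together had 0.661, 0.604 and 0.611 times the FPKM of the 3 survival members in the control cultures. The 5 µM cultures had ratios of 0.721, 0.663 and 0.670, and the 10 µM cultures 0.652, 0.692 and 0.828. The 5 µM cultures lay above all control cultures by a small margin, at a mean of 0.685 ± 0.0317 against 0.625 ± 0.0314 (SD, n = 3), and the 10 µM cultures overlapped both. No test is given, since the score was built on chosen genes.

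Taken as the mean log2 level of the killing members minus that of the survival members, the same balance looked different, because BCL2 was listed at 0 in some libraries. It was -0.21, 3.44 and 3.40 in the control cultures, 3.49, 0.97 and 0.60 at 5 µM, and 0.20, -0.11 and 0.71 at 10 µM. Values above 3 come from the libraries in which BCL2 was listed at 0. With BCL2 left out, an alternative chosen after seeing the data, the means were -3.38 ± 0.09, -3.23 ± 0.10 and -3.17 ± 0.23 (SD, n = 3) at 0, 5 and 10 µM. The control and 5 µM groups then overlapped, and the difference between them was 0.15 on the log2 scale.

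**Figure D3:**
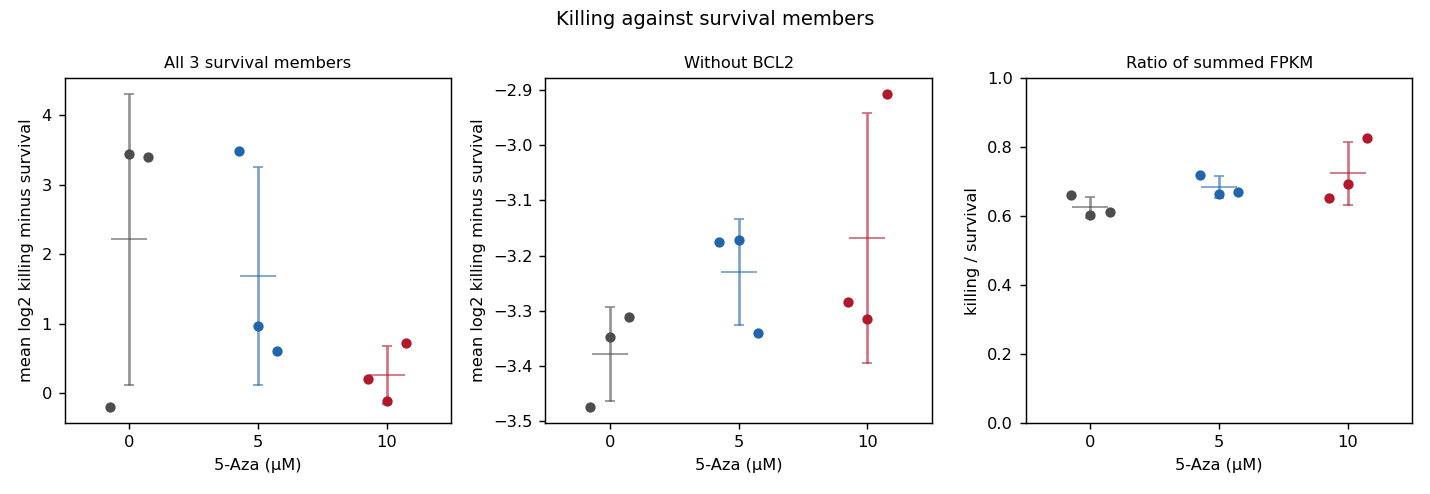
Balance of killing against survival members per culture (vertical axes) against the 5-Aza concentration in µM, as the difference of mean log2(FPKM + 1) with all members (left), without BCL2 (middle, axis not starting at 0), and as the ratio of summed FPKM (right), with mean and SD (n = 3). The left panel splits by whether BCL2 was listed at 0, while the right panel stays between 0.604 and 0.828.

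The makeup of the family was also compared by pairs of members. BCL2L1 made up 67.4% to 70.2% of the survival FPKM in the control cultures, 55.8% to 58.4% at 5 µM and 55.9% to 66.1% at 10 µM, with nearly all of the rest from MCL1. The ratio of MCL1 to BCL2L1 was 0.455 ± 0.0296 in the control and 0.761 ± 0.0419 at 5 µM (SD, n = 3). BAX, which did not pass the test itself, stood at 0.502 ± 0.0582 of BCL2L1 in the control, at 0.747 ± 0.0438 at 5 µM and at 0.684 ± 0.0446 at 10 µM (SD, n = 3), with both treated groups above all control cultures. BBC3 went the other way at 5 µM, from 0.164 ± 0.00481 of BCL2L1 in the control to 0.120 ± 0.0103, without overlap, and was at 0.171 ± 0.0319 at 10 µM (SD, n = 3), where it overlapped the control.

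Of the BH3-only genes, the one that passed higher (BCL2L11) was set against the one that fell the most (BBC3). A change of their ratio at 5 µM follows from that choice. BID fell as well, and PMAIP1 and BIK did not pass the test. BCL2L11 was at 0.199, 0.233 and 0.191 of BBC3 in the control cultures, at 0.519, 0.570 and 0.596 at 5 µM, and at 0.446, 0.322 and 0.256 at 10 µM. These 3 groups did not overlap, with the 10 µM cultures between the others. These ratios follow from the levels above and were not tested separately.

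A further 14 genes of the BCL2 family were listed for comparison, and of those that passed the test at 5 µM vs. 0 µM BMF moved the most. BMF codes for a BH3-only protein that is tied to the cytoskeleton and freed by loss of attachment. Its FPKM was 29970, 35732 and 33262 in the control cultures, 118161, 108311 and 118055 at 5 µM, and 69948, 70754 and 60087 at 10 µM. These 3 groups were well apart, with 10 µM in the middle. BMF differed on the log2 scale by 1.80 (SE 0.10, limma adjusted p = 0.000175) at 5 µM vs. 0 µM, -0.78 (SE 0.13, adjusted p = 0.016) at 10 µM vs. 5 µM and 1.02 (SE 0.16, adjusted p = 0.0108) at 10 µM vs. 0 µM. BMF relative to BBC3 went from 0.105 ± 0.0105 in the control to 0.734 ± 0.0700 at 5 µM and 0.343 ± 0.130 at 10 µM (SD, n = 3). The stretch in front of BMF held 26 CG dinucleotides at one of its 2 start sites in the table and 0 at the other.

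In that list 2 of 14 passed higher and 3 lower at 5 µM vs. 0 µM, against 21.3% and 17.7% of all genes tested, and the median log2 fold change was 0.25 (0.14 over all genes). Besides BMF these were BCL2L12 (0.36), and lower the survival gene BCL2L2 (-0.46), the effector-like BOK (-0.39) and BCL2L15 (-0.92), of which only BMF passed 2-fold. BCL2L12, BCL2L2 and BOK are named after their values were seen. BCL2L15 passed 2-fold at 10 µM vs. 0 µM (-1.12, SE 0.24, limma adjusted p = 0.0271), where BCL2L2 was also lower (-0.86, adjusted p = 0.0184). BCL2L2 shares exons with a read-through gene and with neighbours on the opposite strand, and its value is uncertain to that extent.

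The machinery downstream of the pore was followed as 13 genes from cytochrome c to the caspases. At 5 µM vs. 0 µM, APAF1, the scaffold of the apoptosome, passed higher (0.61) and the channel genes VDAC1 (-0.58) and VDAC3 (-0.35) lower, against 21.3% and 17.7% of all genes tested, and the median was -0.18 (0.14 over all genes). None passed 2-fold in any comparison. Between 10 µM and 5 µM none passed an adjusted p of 0.05. The median at 10 µM vs. 0 µM was -0.29, in a comparison where that of all genes tested was also negative (-0.15). The genes of this list are named after their values were seen.

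Of the 7 inhibitor of apoptosis genes, which restrain caspases or act in cell division and signaling, 2 rose past 2-fold at 5 µM vs. 0 µM, as did 14.1% of all genes tested. The median log2 fold change of the 7 was 0.07. BIRC3, a ubiquitin ligase of the NF-κB pathway, had a log2 fold change of 1.53 (SE 0.18, limma adjusted p = 0.00132), and BIRC7 (livin) of 1.27 (SE 0.20, adjusted p = 0.00394). BIRC7 was also higher at 10 µM vs. 0 µM (1.73, adjusted p = 0.00644), whereas BIRC3 at 0.56 did not pass there (adjusted p = 0.162). BIRC5 (survivin), which is made by dividing cells, was level at 5 µM (0.03, adjusted p = 0.941) and lower at 10 µM, by -1.61 vs. 5 µM (adjusted p = 0.0209) and -1.58 vs. 0 µM (adjusted p = 0.0286). Its FPKM was 9677, 17897 and 17974 at 10 µM, below every culture of the other groups, which lay between 29533 and 57701.

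Among 14 regulators of family members, 3 rose and 6 fell at 5 µM vs. 0 µM, against 21.3% and 17.7% of all genes tested, and the median was -0.14. TP73, a transcription factor that can activate BH3-only genes, rose by 1.90 (SE 0.23, adjusted p = 0.00149) and E2F1, a cell-cycle factor, by 1.74 (SE 0.17, adjusted p = 0.000685). MYC fell by 1.47 (SE 0.10, adjusted p = 0.000297). Compared with the control, 10 µM cultures had higher E2F1, by 2.08 (adjusted p = 0.00327), and lower MYC (-0.75, adjusted p = 0.0406).

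**Figure D4:**
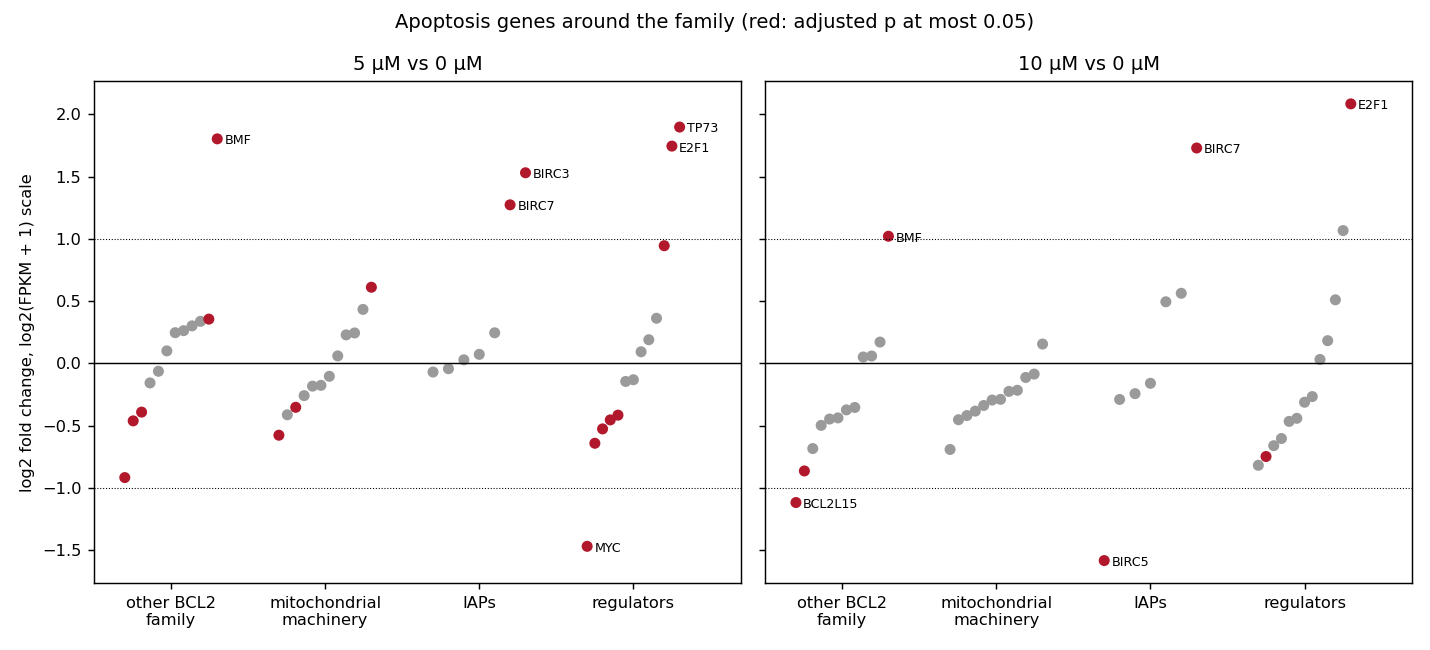
Log2 fold change on the log2(FPKM + 1) scale (vertical axis) of the genes reported from 4 lists around the family (horizontal axis, 1 point per gene, ordered by value) at 5 µM vs. 0 µM (left) and 10 µM vs. 0 µM (right); red points have an adjusted p of at most 0.05, dotted lines mark 2-fold and genes past both limits are named. HRK and BCL2A1, which were listed at 0 in at least 1 library, are not drawn. BMF is the highest point drawn of its list in both panels, and the mitochondrial machinery stays inside the 2-fold lines.

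A search among 15278 genes for those most like BBC3 gave PLAUR (r = 0.996), BTBD2 (r = 0.986) and TTC4 (r = 0.985). It used the Pearson correlation of log2(FPKM + 1) over the 9 libraries, without scaling of the libraries. The points share their libraries and depth, and 3 groups set most of the pattern, so these are descriptions only.

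The depth behind these values was estimated from the steps of low FPKM values at between 11050865 fragments (10 µM replicate 1) and 30333073 (5 µM replicate 3) per library. Members other than BCL2 and BIK rested on between 192 and 12300 estimated fragments per library. All 7 markers of colon epithelium were above 0 in every library, and their summed FPKM was 74242673 to 89248111 in the control cultures, 28936188 to 33052185 at 5 µM and 23462742 to 41245057 at 10 µM. KRT8 and KRT18 made up most of that sum, with means of 39381667 and 32981667 FPKM in the control and 12559833 and 10580903 at 5 µM. At 5 µM vs. 0 µM, 5 of the 7 passed lower, CDH17 passed higher (log2 fold change 0.62, limma adjusted p = 0.00265) and EPCAM did not pass (-0.23, adjusted p = 0.197). The summed fibroblast markers were far lower, at 5831 to 9463 FPKM in the control, 33661 to 46932 at 5 µM and 18633 to 25627 at 10 µM. The endothelial markers summed to 1901 to 5031, 9843 to 12404 and 3267 to 3588 FPKM. Both sums were thus higher at 5 µM than in the control without overlap, beside the changes of the members. They were carried by COL1A1 (mean 6567 FPKM in the control and 37114 at 5 µM) and PECAM1 (3156 and 8710). The other markers of these lists were also higher on average at 5 µM, except DCN, which went from a mean of 512 FPKM to 0. The leukocyte list summed to 8567109 to 8815638 FPKM in the control, 3893788 to 4774374 at 5 µM and 4528073 to 6537011 at 10 µM. It was carried by LYZ, a lysozyme gene that gut epithelium expresses as well. The part of these markers in the results was not tested. The 10 µM replicates 1 and 3 stood apart by lower scale factors, 0.8353 and 0.8571, against 1.003 to 1.101 elsewhere. In bulk RNA, fewer cells expressing a gene and less RNA per cell cannot be told apart.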

How the data were processed

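The 9 HT-29 cultures were grouped by the concentrations in the sample labels. From paired-end reads trimmed with FASTX-Toolkit and mapped to hg19 by TopHat, the authors derived FPKM per gene using Cufflinks. These deposited FPKM values are the only values used here. Their library term and annotation version are not given in the sources used here, and raw counts and microarray data were not used here. The kit does not mark strand.

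The members and gene lists were chosen with earlier results of these data known. All 10 members are named, and of each further list the genes past both thresholds in any comparison, at most 4 by largest change. Some results under this rule are not reported here. Repeated symbols were summed. Values were analysed as log2(FPKM + 1). For genes listed at 0 in some libraries, the log2 change can be large and depends on the value added. Genes with a value of at least 10 in any of the 6 libraries compared were tested. Each comparison used its 6 libraries in limma 3.58.1 (R 4.3.3; lmFit, eBayes with intensity trend) with Benjamini-Hochberg adjustment over all tested genes. Calls required an adjusted p of at most 0.05, and for 2-fold calls a log2 fold change above 1 or below -1. The scripts were tested on simulated data. An exact permutation test of 3 against 3 cultures cannot go below p = 0.1 and was not used.

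Fragments were estimated from the FPKM steps at 12 microRNA genes of 110 nucleotides, where 100% of 46 values above 0 were whole multiples of 1 step (tolerance 0.01). The fragment numbers are point estimates without intervals, and an exact 0 can be a failed estimate. Of 146 longer genes, 98 had estimated steps within 25% of the predicted ones. Positions come from the GRCh37 annotation. Alternatives were a pseudocount of 0.1 or 1000, other filters, 1 fit of all 9 samples, the replicate number as a block, median-of-ratios scaling, the largest entry of repeated symbols, no intensity trend, and each replicate left out in turn. Python 3.11.15, pandas 2.3.3, numpy 2.4.6 and matplotlib 3.10.9 were used.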

Additional observations from a re-analysis of the deposited data

How the results depend on the processing

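Over the 10 members, 3 comparisons and all alternatives, 411 of the values kept their direction and side of the adjusted p threshold, 16 lost a pass, 9 gained one and 13 changed sign. Apart from the leave-out runs, signs changed for BCL2 at 5 µM vs. 0 µM (-0.22 with a pseudocount of 1000), and with median-of-ratios scaling for BCL2L1 at 10 µM vs. 5 µM (0.086), and for BAX (0.019) and PMAIP1 (0.15) at 10 µM vs. 0 µM, none of which passed the test. Leaving out single cultures gave ranges across 0 for BAX at 5 µM vs. 0 µM (-0.084 to 0.14), BCL2L1 at 10 µM vs. 5 µM (-0.31 to 0.058) and, at 10 µM vs. 0 µM, for PMAIP1 (-0.26 to 0.021), BCL2L11 (-0.050 to 0.15) and BIK (-0.25 to 0.31).

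The single member called at 5 µM vs. 0 µM became 0 with a pseudocount of 1000 or median-of-ratios scaling, and 0 to 1 when cultures were left out. The 1 member past the adjusted p at 10 µM vs. 0 µM became 0 without a filter, with scaling and without the intensity trend, 3 with all 9 samples in one fit, and 0 to 4 when cultures were left out. At 10 µM vs. 5 µM the leave-out runs gave 0 to 2 instead of 0 members, and at 10 µM vs. 0 µM 0 to 1 instead of 0 called members (BCL2 without control replicate 1). BCL2L11 at 5 µM had adjusted p = 0.0541 without the intensity trend in limma.

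Cultures with the same replicate number in different groups deviated together no more than others (correlations of -0.07 to 0.09 over 9 pairs, against -0.16 to 0.10 over 18), and a culture correlated best with its own number in 6 of 18 looks at another group. With the replicate block, the members past the adjusted p were 4 at 5 µM vs. 0 µM (main 4), 0 at 10 µM vs. 5 µM (0) and 0 at 10 µM vs. 0 µM (1, BID, whose adjusted p became 0.0655), and the block changed no other call of a member. All genes called at 10 µM vs. 5 µM went from 26 higher and 969 lower to 11 and 407 with the block.

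Other counts of all genes that moved were, at 10 µM vs. 5 µM, 55 higher with scaling and 16 without the trend, 12 to 64 higher and 176 to 1873 lower in leave-out runs. At 10 µM vs. 0 µM, where 771 were higher and 644 lower, they were 284 lower (1125 higher) with scaling, 278 lower without the trend, and 337 higher at the lowest and 165 to 1500 lower in leave-out runs. The lowest 10 µM vs. 5 µM count was without 5 µM replicate 3 and the highest lower counts were without 10 µM replicate 2.

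The mean log2 killing minus survival difference was -0.53, -1.42 and -1.95 at 5 µM vs. 0 µM, 10 µM vs. 5 µM and 10 µM vs. 0 µM. For the first it was -0.26 with medians, and of opposite sign as summed FPKM (0.13), with a pseudocount of 1000 (0.15) and without BCL2 (0.15). The SD between cultures of the score with all members was 2.095 in the control and 1.573 at 5 µM (n = 3). Without BCL2 it was 0.085 and 0.096. The sign of the first difference thus depended on how the score was formed. For the last 2 it became 0.18 and -0.080 with medians, 0.074 and 0.20 as summed FPKM, -0.23 and -0.078 with a pseudocount of 1000, and 0.060 and 0.21 without BCL2. Leaving out cultures gave -1.74 to 0.09, -1.97 to -0.52 and -3.16 to -1.33. Without control replicate 1, where BCL2 was above 0, the first was -1.74. The alternative without BCL2 differs from the main score only in that gene, and the cause of the remaining moves was not tested. BCL2 was not tested at 5 µM vs. 0 µM when all 3 replicates of a group had to reach 10.

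BCL2 and BIK rest on few estimated fragments, and the cultures of the 10 µM group spread more widely for most members. Whether either accounts for a missing call was not tested. A single line, 3 cultures a group and gene-level values without isoforms or strand bound all statements.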
